A study of Homo sapiens with 8 samples.

Results

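The genes ABAT, SLC43A2, ARL15, REV3L, ABCG1 and CYP11A1 each had 1 RFX7 peak in the list made from Nutlin-3a-treated HCT116 cells and 0 peaks in the list made from solvent-treated cells. These 6 genes, of 20033 protein-coding genes in the annotation, were chosen by that very difference between the lists. An entry was assigned to a gene when its summit lay inside the gene or within 50 kb of either end. The rule found 6 of 622 entries of the Nutlin-3a list and 0 of 505 entries of the DMSO list. Because the lists chose the genes, the presence in the Nutlin-3a list and the absence from the DMSO list are descriptions, and no test was made of them.

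DNA bound by RFX7 was pulled down with an antibody and sequenced (chromatin immunoprecipitation, ChIP-seq) from HCT116, an established human colorectal carcinoma line that keeps functional p53. One group of 2 RFX7 ChIP samples came from cells given 10 µM Nutlin-3a for 24 h, and another group of 2 from cells given the solvent DMSO for 24 h. Each treatment also had 2 input samples, which are chromatin sequenced without the antibody. A single peak list was deposited for each treatment and carries no value per replicate, so the spread between replicates is unknown for every difference below. Read depth per sample was not given in the files used here.

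RFX7 is a member of the RFX family of transcription factors, which bind DNA through a winged-helix domain at a sequence called the X-box. An X-box is an inverted repeat. Here an arm means exactly GTTGC or GCAAC, whereas whole X-boxes were searched with a partly open pattern given below. Nutlin-3a blocks MDM2, the protein that marks p53 for degradation, and so raises p53 without DNA damage.

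The 6 genes encode enzymes, transporters and a GTPase, and the products of ABCG1 and CYP11A1 both act on cholesterol. ABAT encodes the mitochondrial transaminase that breaks down the neurotransmitter GABA, and SLC43A2 encodes a plasma membrane transporter of large neutral amino acids. ARL15 encodes a small GTPase of the ARF-like family, and REV3L the catalytic subunit of DNA polymerase zeta, which copies past damaged bases. ABCG1 exports cholesterol from cells, and CYP11A1 makes the first cut in the cholesterol side chain in steroid hormone synthesis. ABAT, SLC43A2, ARL15 and REV3L also stood in an 18-gene list of RFX7 targets recalled with results of these data known, so their place in that list is not independent evidence.

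Promoter windows of RefSeq (GRCh38.p14) were at hand for 5 of the 6 genes, all but ABCG1, and at 4 of these 5 the Nutlin-3a entry touched a window of the gene. A window runs from 250 bases before to 50 bases after an annotated start. The stretch from 150 bases before the start to 30 bases into the gene is shown for these 4, since it lies under or beside the peaks. Capitals mark X-box arms (GTTGC or GCAAC), whole X-boxes, and CCAAT boxes (CCAAT or its reverse complement ATTGG, the site bound by the factor NF-Y). The CCAAT search was added after the sequences had been seen. Each is written in the direction of the gene.
ABAT, upstream start, chr16:8674467-8674646, plus strand: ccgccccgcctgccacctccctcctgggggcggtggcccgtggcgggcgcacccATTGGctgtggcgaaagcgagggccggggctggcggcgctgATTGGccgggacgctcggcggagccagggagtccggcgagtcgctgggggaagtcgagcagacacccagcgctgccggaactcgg
SLC43A2, chr17:1628805-1628984, minus strand: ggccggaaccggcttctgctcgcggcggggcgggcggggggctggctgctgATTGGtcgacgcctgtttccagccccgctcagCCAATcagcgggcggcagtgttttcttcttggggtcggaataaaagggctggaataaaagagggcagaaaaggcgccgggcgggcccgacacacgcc
ARL15, chr5:54310544-54310723, minus strand: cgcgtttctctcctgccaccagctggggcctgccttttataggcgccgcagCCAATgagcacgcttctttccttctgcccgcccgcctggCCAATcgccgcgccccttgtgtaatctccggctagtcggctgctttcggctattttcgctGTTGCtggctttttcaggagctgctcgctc
REV3L, chr6:111483189-111483368, minus strand: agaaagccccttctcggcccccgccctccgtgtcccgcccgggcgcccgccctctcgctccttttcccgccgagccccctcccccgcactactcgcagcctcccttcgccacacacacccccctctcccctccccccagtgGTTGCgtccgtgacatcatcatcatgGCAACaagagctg

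The annotated start that the ABAT entry covered held 0 X-box arms and 2 CCAAT boxes in its window, and the SLC43A2 window likewise held 0 arms and 2 CCAAT boxes. The ARL15 window held 2 CCAAT boxes and 1 arm, which begins at the first base of the annotated start. The REV3L window held 2 arms and 0 CCAAT boxes, and its arms begin 9 bases before and 17 bases after the start. The first CCAAT box began 96 bases before the start at ABAT, 99 before it at SLC43A2 and 99 before it at ARL15. The second began 55, 67 and 60 bases before the start. No window of these 4 held a whole X-box, searched as GTNNCC and GGNNAC with 0 to 3 bases between them. This says only that those letters are not in these windows. Arms were counted as exact matches, so a count of 0 does not exclude a looser arm. For example, the stretches shown for ABAT and SLC43A2 hold GTGGCC and GTTTCC, which match GTNNCC. Single sides of the whole X-box pattern were not counted.

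A whole X-box lay elsewhere in ABAT. The RefSeq table gives 3 further starts of that gene, and the windows of 2 of them share the X-box in the sequence below, an inverted repeat with both arms. The upstream arm overlaps a CCAAT box by 1 base. Neither list had an entry there. The nearest of these starts lay 38.1 kb from the Nutlin-3a entry.
ABAT, internal start, chr16:8712687-8712866, plus strand: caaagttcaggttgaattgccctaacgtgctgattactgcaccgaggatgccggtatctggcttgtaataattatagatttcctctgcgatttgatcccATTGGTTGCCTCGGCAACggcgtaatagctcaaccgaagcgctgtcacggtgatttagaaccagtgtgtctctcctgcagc

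The same search matched 1 window each of SLC43A2 and CYP11A1 that no entry touched. At SLC43A2 the match was GTTGCCGGGGGAAC, with 1 arm, 183 bases before a start that lay 465 bp outside the Nutlin-3a entry (window chr17:1628367-1628666). The match lay between that start and the entry, so it was closer to the entry than the start was. At CYP11A1 it was GTGGCCCAGGGCTAC, with 0 arms, 13 bases before the start (window chr15:74367597-74367896), which lay 6.74 kb from the entry.

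For comparison, PDCD4, a gene whose protein inhibits translation initiation, had an entry in both lists. Its promoter also held 0 arms and 2 CCAAT boxes, beginning 100 and 73 bases before its start. PDCD4 was not typical of the RFX7 target list. Of the 8 other genes of that list with a window touched by a Nutlin-3a entry, 7 held an arm there, all but PDCD4.
PDCD4, chr10:110871778-110871957, plus strand: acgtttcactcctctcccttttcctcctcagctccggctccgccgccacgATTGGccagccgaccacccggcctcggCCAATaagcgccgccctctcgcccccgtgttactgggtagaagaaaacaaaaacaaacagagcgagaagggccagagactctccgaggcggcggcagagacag

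X-box arms and pairs of CCAAT boxes were found at higher shares in windows touched by peaks of either kind than in all windows. Few windows of any kind held a whole X-box. Matches were counted anywhere in a touched window, also outside the entry. At least 1 arm was found in 33.6% of all 35116 promoter windows. The share was 70.1% of the 77 windows touched by a Nutlin-3a entry that overlapped a DMSO entry, and 62.3% of the 61 touched by an entry that did not. At least 2 CCAAT boxes were found in 10.8% of all windows, in 53.2% of the former and in 50.8% of the latter. A whole X-box was found in 3.87% of all windows, in 1.30% (1 window) and in 6.56% (4 windows). Starts of 1 gene can have overlapping windows, so the windows are not independent, and no test was made.

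**Figure D1:**
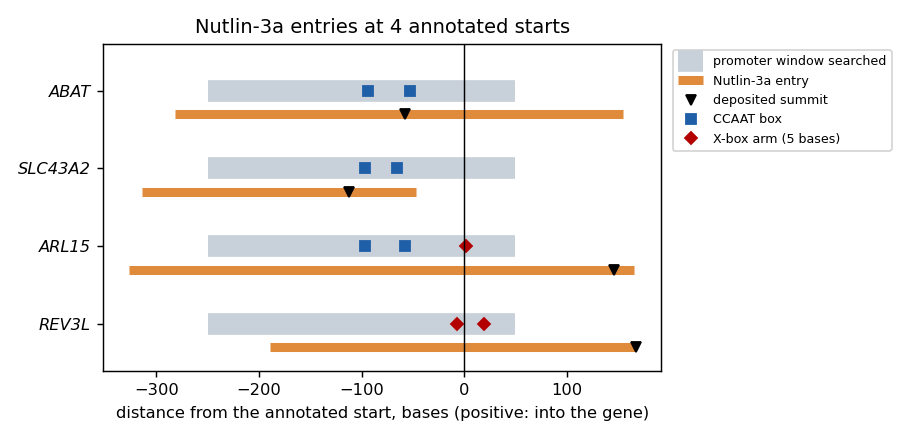
Positions of the Nutlin-3a entries at the 4 annotated starts they touched, in bases from the start. The orange bars are entries, the grey bars the promoter windows searched, the triangles the deposited summits, the diamonds X-box arms and the squares CCAAT boxes. The entries at ABAT, ARL15 and REV3L span the start, and the SLC43A2 entry ends 47 bases before it.

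At ABAT, the Nutlin-3a entry covered chr16:8674335-8674772, 438 bp wide. Its summit lay 58 bp before the annotated start of the gene, which spans chr16:8674617-8784570. The authors' fold enrichment was 5.78, the −log10 p was 25.98 and the −log10 q was 21.1. The next coding gene was METTL22, 7285 bp from the summit.

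At SLC43A2, which spans chr17:1569254-1630088, the entry covered chr17:1628881-1629148 and was 268 bp wide. The summit lay inside the gene, 1142 bp from its nearer end and 112 bases before the annotated start shown above. The fold enrichment was 4.54, the −log10 p 17.0 and the −log10 q 12.2. The other coding genes within 50 kb of this summit were SCARF1 at 4912 bp, RILP at 17204 bp and PRPF8 at 21683 bp.

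The ARL15 entry, at chr5:54310408-54310900, was the widest of the 6 at 493 bp and lay at the edge of a gene of 426632 bp. Its fold enrichment was 4.65, its −log10 p 30.8 and its −log10 q 25.9. The deposited summit lay 146 bases into the gene, while the midpoint of the entry lay 81 bases before the start. No other coding gene lay within 50 kb of it.

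REV3L, which spans chr6:111299033-111483711, had the entry closest to the calling threshold. The entry covered chr6:111483051-111483407, 357 bp, with a fold enrichment of 2.84, a −log10 p of 12.2 and a −log10 q of 7.71. Its summit was given as the first base of the entry, 167 bases past the second of 2 annotated starts. The midpoint of the entry lay 11 bases before that start. The first start lay 304 bp outside the entry.

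ABCG1 and CYP11A1 had the entries with the highest fold enrichment of the 6. The ABCG1 entry, chr21:42234753-42235170, was 418 bp wide and lay inside the gene (chr21:42199689-42297244), 35102 bp from its nearer end. It had a fold enrichment of 10.7, a −log10 p of 63.7 and a −log10 q of 58.4. Promoter windows of ABCG1 were not used here, so its distance to starts inside the gene was not measured. The CYP11A1 entry, chr15:74374383-74374673, was 291 bp wide with a fold enrichment of 10.7, a −log10 p of 50.3 and a −log10 q of 45.1. Its summit lay outside the gene, 6848 bp before the annotated start, and the entry did not touch the promoter window. SEMA7A and CCDC33 lay 34795 and 38022 bp away, so this summit falls within 50 kb of 3 coding genes.

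The distance of each entry from the calling threshold was then taken. The threshold was set at a q of 0.05, or a −log10 q of 1.30, since the lowest values listed were 1.31 (DMSO) and 1.36 (Nutlin-3a). On the −log10 q scale the REV3L entry stood 6.41 above it, SLC43A2 10.9, ABAT 19.8, ARL15 24.6, CYP11A1 43.8 and ABCG1 57.1. By −log10 q, REV3L ranked 492 of 622, SLC43A2 413, ABAT 325, ARL15 288, CYP11A1 212 and ABCG1 177. Thus 4 of the 6 had a −log10 q above 20, and REV3L alone was under 10. The median over the 6 was 23.5, beside 22.6 over the whole Nutlin-3a list.

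**Figure D2:**
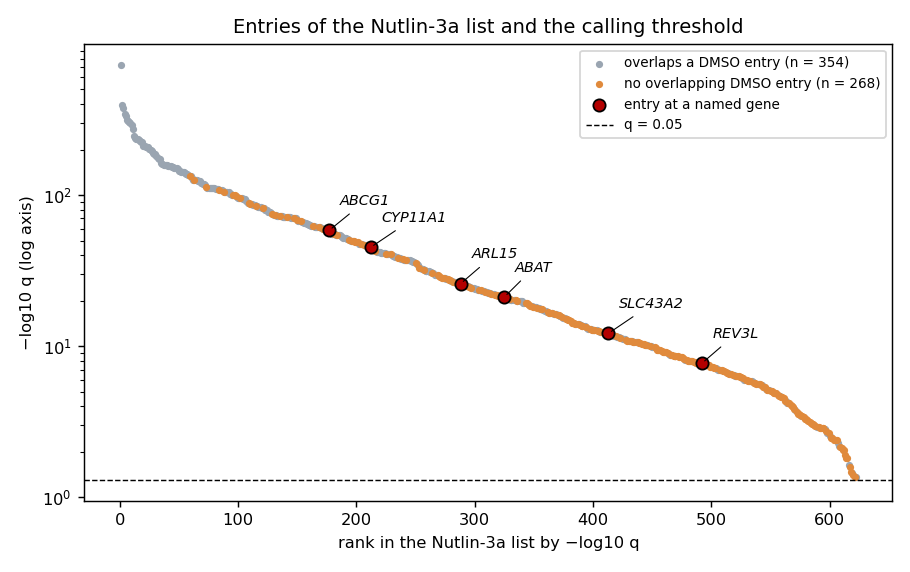
The 622 entries of the Nutlin-3a list in order of −log10 q (logarithmic axis), coloured by whether a DMSO entry overlapped them. The dashed line is q = 0.05, and the 6 named entries stand from 6.41 (REV3L) to 57.1 (ABCG1) above it on the −log10 q scale.

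Entries without an overlapping DMSO entry made up 43.1% of the Nutlin-3a list (268 entries). Counted by gene, 1.36% of all coding genes (273) had a Nutlin-3a summit within 50 kb and no DMSO summit there, against 3.44% with a summit of either list. At 5 kb the shares were 0.534% and 1.44%. Since the rule selected the 6 genes on this property, nothing is read from their count of 6 of 6.

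Entries were also ranked among those on a low local background. Background was solved from the fold enrichment and p of each entry under the definitions of MACS2. Entries fell on 2 curves of q against p, the first defined by entries under 150 bp, and each curve has its own lowest background. Values under 20 times the lowest of the curve were taken as low. ABAT and CYP11A1, whose statistics solve to a whole number of fragments, came to 2.11 and 1.35 times the lowest. SLC43A2, ARL15, REV3L and ABCG1 came to 1.83 to 6.46 times, but gave no whole number, and for such entries the solved background is uncertain. The 6.46 is that of SLC43A2, which is on the first curve, whereas the others are on the second. Its solved background, 8.848, was near the 8.685 of ABAT and under the 17.42 of ARL15 and 20.06 of REV3L. At MXD4, one of the RFX7 targets below, the solved background was 26.8 times the lowest in the Nutlin-3a list without a whole number. In the DMSO list it was 1.31 times, with one. The ranks of those 4 entries below, and the make-up of the low-background set, carry this limit. Of the 337 low-background Nutlin-3a entries, 54.0% (182) had no overlapping DMSO entry. The 182 had a median fold enrichment of 4.33 and a median −log10 q of 8.28, against 6.22 and 35.8 for the 155 that overlapped one. Among the 182, ABCG1 ranked 2 by fold enrichment and 3 by −log10 q, and CYP11A1 ranked 3 and 4. ARL15 ranked 11 by −log10 q, ABAT 21, SLC43A2 58 and REV3L 101. By fold enrichment those 4 ranked 73, 37, 78 and 168.

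The entries of the 182 with the highest −log10 q, 71.8 and 62.3, lay on chromosomes 9 and 6, 235048 and 1556011 bp from the nearest coding gene. The lowest, 1.58 and 1.82, lie just inside the threshold, at 617 and 615 in the rank order of the list. The 6 entries were 268 to 493 bp wide, with a median of 388 bp, beside a median of 180 bp and a maximum of 497 bp among the 182.

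**Figure D3:**
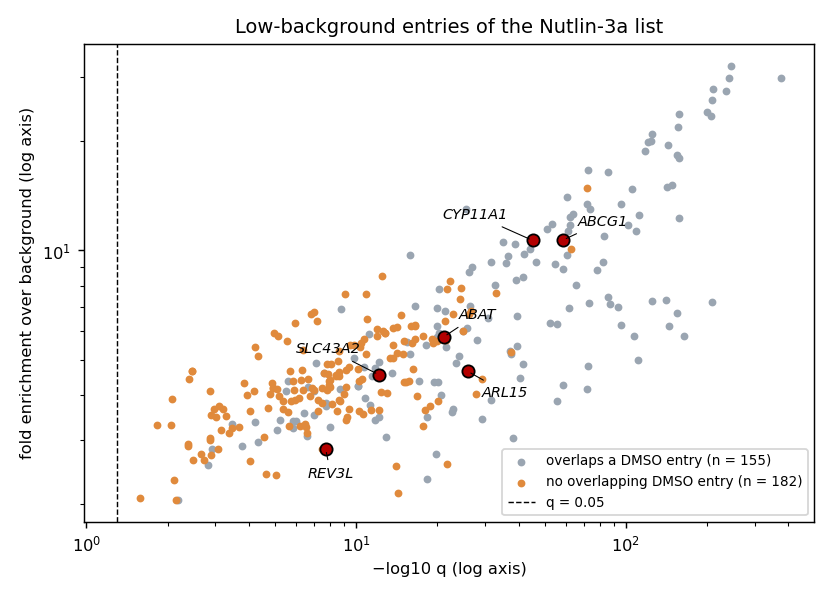
Fold enrichment against −log10 q (both axes logarithmic) for the 337 low-background entries of the Nutlin-3a list, coloured by overlap with the DMSO list. ABCG1 and CYP11A1 lie near a fold enrichment of 10.7, among entries that overlapped a DMSO entry, and REV3L lies at the lower edge at 2.84.

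The gap from each entry to the nearest DMSO entry is given as a description. The smallest gap was 719 kb, at SLC43A2, to a DMSO entry with a −log10 q of 4.14. At the other 5 genes the gap ran from 4223 kb (ABCG1) to 18508 kb (CYP11A1). Other Nutlin-3a entries were likewise distant, with the closest 223.5 kb from that of CYP11A1. The absence of a DMSO entry within 50 kb is what the genes were chosen for, and nothing is read from it.

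A DMSO peak below the threshold leaves no trace in a peak list, so the DMSO level at the 6 sites is not known, but a limit on it could be worked out for 2 genes. The ABAT and CYP11A1 statistics gave a whole-number pileup, which is the number of stacked fragments at the summit. The other 4 entries gave none, so their columns may not stem from 1 peak call, and their pileups are not given. At ABAT the pileup was 55 fragments on a background of 8.685, where 25 were enough for a listed entry on its curve. At CYP11A1 it was 69 on a background of 5.566, where 19 were enough.

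The lowest background of a list rises with its ChIP read number in MACS2, and was used here in place of the depth, which is unknown. It is only the lowest value solved among listed whole-number entries, so the scaling below is an assumption. On the second curve, which holds the ABAT and CYP11A1 entries, the lowest background was 4.11 for Nutlin-3a and 5.27 for DMSO, a ratio of 0.78. Scaled to the DMSO depth, the Nutlin-3a pileups came to 70.5 at ABAT and 88.4 at CYP11A1. With the background scaled in the same way, pileups were set against the lowest −log10 p of a DMSO entry on that curve (5.51). A DMSO pileup of 29 at ABAT or 22 at CYP11A1 reached it. If the list is a single unfiltered peak call, an unlisted DMSO pileup was at most 28 at ABAT and 21 at CYP11A1. That is 39.7% and 23.7% of the scaled Nutlin-3a value. These limits carry no replicate error, and they ignore the minimum length of a peak. They also rest on entries of the second curve alone. Whether the list is a single unfiltered call was not tested. Merging or filtering of calls could leave a higher DMSO pileup unlisted.

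For reference, in 44 pairs of overlapping entries with a low background and a whole-number pileup in both lists, the DMSO pileup was 60.2% (median) of the scaled Nutlin-3a pileup, and ranged from 41.1 to 123%. These pairs had to be listed in DMSO, whereas ABAT and CYP11A1 were chosen for not being listed there, so the order of the limits and the 44 values is largely set by the choice and is not read. With the DMSO background doubled, a setting added after seeing the data, the limits became 65.3% at ABAT and 37.3% at CYP11A1.

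**Figure D4:**
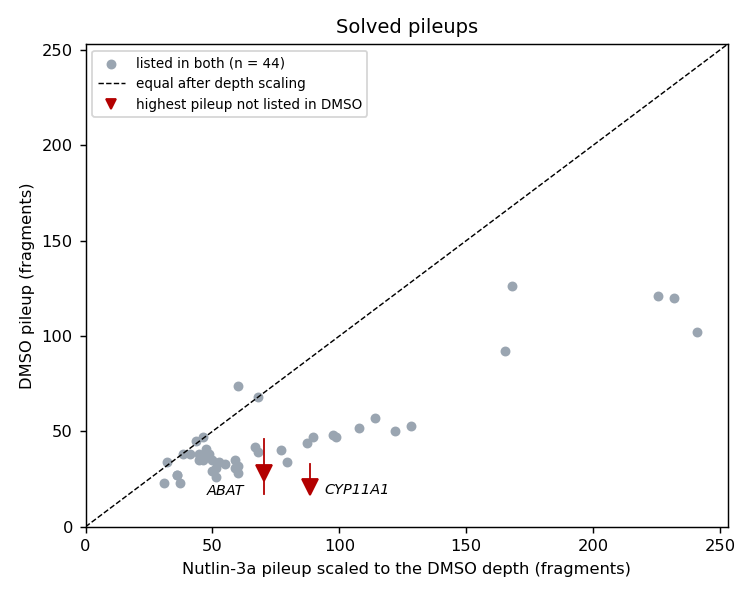
DMSO pileup against the Nutlin-3a pileup scaled to the DMSO depth by the lowest backgrounds, in fragments, for the 44 pairs listed in both (grey). Red triangles are the highest DMSO pileups that would have stayed unlisted at ABAT (28) and CYP11A1 (21) in a single unfiltered peak call. The red lines run from the limit at the lowest DMSO background of the second curve to that at a doubled one. Most grey points lie under the dashed line of equal values.

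The remaining 14 genes of the recalled RFX7 target list were looked at with the same 50 kb rule. Entries in both lists were found at 12 of them, namely the cell cycle and growth regulators CCND1, JUNB, MXD4, TOB1 and PDCD4, the PI3K pathway genes PIK3IP1 and PIK3R3, and IP6K2, PNRC1, RFX5, TSPYL1 and TSPYL2. ATOSA had 2 entries in the Nutlin-3a list alone, with a −log10 q of 14.6 and 8.99, and so shows the pattern of the 6 genes without being one of them. RFX7 itself had none. At the 12 genes the highest Nutlin-3a entry had a −log10 q of 41.5 (JUNB) to 224 (PNRC1), with a median of 102. ABAT, SLC43A2, ARL15 and REV3L, at 7.71 to 25.9, and ATOSA all lay under this range. ABCG1 and CYP11A1, which are not in the target list, lay inside it at 58.4 and 45.1. The genes compared were split by their presence in the DMSO list, and the difference was not tested.

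Taking the highest DMSO entry of each of the 12 genes, the −log10 q was lowest at TSPYL2 (13.8), JUNB (17.7) and PIK3IP1 (21.3), with a median of 37.5. Further, lower DMSO entries were listed at CCND1, JUNB and MXD4, down to a −log10 q of 3.00 at CCND1. The highest −log10 q of a gene was higher in the Nutlin-3a list at 12 of 12 genes, as it was in 76.1% of all 352 pairs of overlapping entries and in 89.1% of the 147 pairs on low background. At PNRC1 and MXD4 the values were near equal, 223.95 against 223.4 and 138.5 against 136.3. Fold enrichment of the same entries had no common direction. It was higher in the DMSO list at MXD4 (19.3 against 4.27), PNRC1 (17.4 against 4.75), TSPYL1 (8.62 against 4.16) and PIK3R3 (11.2 against 7.25). It was also higher there at PDCD4 and CCND1, and higher in the Nutlin-3a list at the rest of the 12 genes. A −log10 q depends on depth and background as well as on binding, and most of these Nutlin-3a entries lacked a whole-number pileup.

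**Figure D5:**
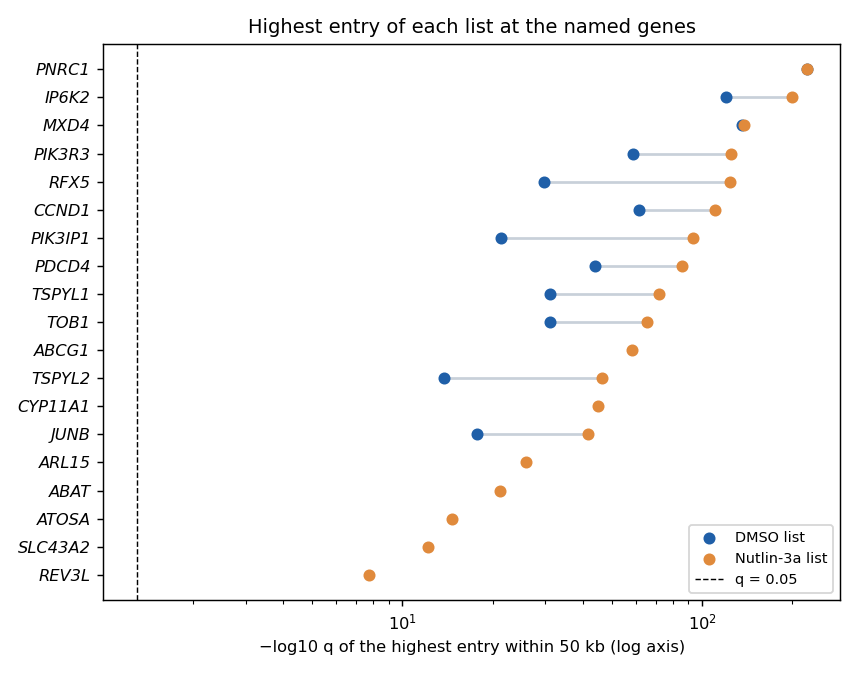
Highest −log10 q (logarithmic axis) within 50 kb of each gene in the DMSO list (blue) and the Nutlin-3a list (orange), for the 17 list genes with an entry and for ABCG1 and CYP11A1. Genes with an orange point alone have no DMSO entry, and the dashed line is q = 0.05.

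In the promoter windows of the other list genes, 8 genes had a window touched by a Nutlin-3a entry. Of these, 7 (all but PDCD4) held an X-box arm there, 5 held at least 2 CCAAT boxes and 0 held a whole X-box. Among the 4 genes shown above the counts were 2, 3 and 0. With so few genes the difference is given as counts alone.

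Short recalled lists of partners and relatives of the 6 gene products were also counted. Among the other enzymes of GABA metabolism, 0 of 4 had a summit of either list within 50 kb, beside 3.44% of all coding genes. The count was 0 of 5 for related amino acid transporters and 0 of 19 for ARF-like GTPases and the CNNM proteins that ARL15 binds. It was 0 of 9 for translesion synthesis genes, among them REV1 and MAD2L2, partners of REV3L. It was 0 of 10 for sterol transport genes such as ABCA1 and 0 of 11 for steroid synthesis genes such as STAR and FDX1. In lists of this length a count of 0 is near that background share. Of 25 direct p53 targets, 5 (BBC3, SESN2, TIGAR, BTG2 and TP53INP1) had a summit within 50 kb, each in both lists. The share of all coding genes was 3.44%. The pattern of the 6 genes was seen at 0 of 25, beside 1.36% of all coding genes, so nothing is read from this 0. Within 5 kb the count with a summit fell to 1 of 25, beside 1.44% of all coding genes. For the other genes of the RFX7 target list it stayed at 13 of 14. That list was recalled with results of these data known, so the difference between these counts is not read.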

How the data were processed

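RFX7 ChIP and input samples were grouped by their titles, 2 samples in each of 4 groups. Per the submitters' processing notes the build is hg38 and the tools named include Trimmomatic 0.39, cutadapt 2.10, SAMtools 1.10, Picard, MACS2 2.2.7.1 and bedtools 2.29.2, with no settings. The authors deposited 1 narrowPeak list per treatment, with a linear fold (ratio) per entry, the −log10 p and −log10 q, and a score, which is 10 times the −log10 q as a whole number. Pooling of replicates is not given in the sources used here. Fold, p and q are the authors' own values and serve to describe entries within a list.

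The members and the gene lists were chosen with earlier results of these data known. The named genes were the 6 members, coding neighbours within 50 kb, the other genes of the lists and the 2 highest and 2 lowest unshared entries. An overlap of 1 bp or more made entries shared. Genes, starts and promoter sequences came from RefSeq tables of GRCh38.p14, in which all members and list genes were found by symbol, and promoter sequences for 5 of the 6 members.

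Pileup k and background b were solved from fold = (k + 1)/(b + 1) and p = the Poisson tail above k, and k counted as whole within 0.02 (399 of 622 Nutlin-3a and 400 of 505 DMSO entries). Entries were put on 2 curves of q against p. Those under 150 bp defined the first curve, wider ones within 0.06 of it (SLC43A2 among them, at 268 bp) were put on it too, and the rest within its range of p formed the second. Entries beyond that range were left unassigned and set against the lowest background of the second. The lowest background was taken per curve. The steps were tested on simulated data with Python 3.11.15, numpy 2.4.6, scipy 1.17.1 and pandas 2.3.3. No significance test was run, since 1 list per treatment allows none across samples. Alternatives for overlap, threshold, window and ranking are in the closing section.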

Additional observations from a re-analysis of the deposited data

How the results depend on the processing

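No paired analysis was possible because the lists hold no values per replicate, and for the same reason no replicate was left out. Of 34 alternative values, 18 stayed within 1.5 times the main value. Of these 18, the 4 other overlap rules could return only 6 of 6, since the genes were chosen for having no DMSO entry within 50 kb. They show nothing about stability. A further 6 of the 18 are ranks by −log10 p, and q follows p closely within a list, so these could hardly move. With the Nutlin-3a list at a −log10 q of at least 5, 10 and 20, the number of genes was 6, 5 and 4. With windows of 5 and 100 kb and with midpoints, 5, 6 and 6 entries were assigned. CYP11A1 was the one lost at 5 kb. The share of all coding genes with a Nutlin-3a summit and no DMSO summit moved from 1.36% to 0.534% at 5 kb and to 2.17% at 100 kb, as wider windows take in more genes. Ranks moved by over 1.5 times at 5 of 6 genes when fold enrichment replaced −log10 q, toward the top of the list at each, and at 6 of 6 when fewer entries, those on low background, were ranked. Depth per sample is unknown, and a site under the DMSO threshold cannot be told from an unbound one.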
